A study of Mus musculus with 8 samples.

Results

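The samples described here are the 4 untreated libraries of mouse myeloid-derived suppressor cells (MDSCs), of 8 libraries in the series. They were chosen by their treatment label alone. All 4 come from bone marrow of C57BL/6 mice that was cultured with the growth factor GM-CSF and the cytokine IL-6, both at 40 ng/ml, and moved on day 4 into medium conditioned by TRAMP-C1 cells, a mouse prostate tumour line. Such cells are labelled senescent-like by the submitters. The other 4 libraries are the same kind of culture given the histone deacetylase inhibitor Romidepsin at 0.5 µM for 6 h, and of them only the counts of a few genes are given, after the other results, besides an alternative scaling. Separate cultures or animals are not named for the numbered libraries, so the labels do not say how far the spread between them is technical. MDSCs that are not senescent-like were not analysed here, so levels below are described as they stand and none can be read as raised or lowered by senescence. Of 26930 genes in the table, 22771 had at least 1 count in these libraries.

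MDSCs are myeloid cells that restrain T cells and accumulate in tumour-bearing hosts. They are usually divided into a granulocytic kind, close to neutrophils and marked by Ly6G, and a monocytic kind, marked by Ly6C. GM-CSF and IL-6 drive bone marrow precursors toward such cells in culture, and GM-CSF also supports macrophages and dendritic cells. Senescent cells leave the cell cycle through the inhibitors p21 or p16, enlarge their lysosomes and often secrete inflammatory proteins, known as the senescence-associated secretory phenotype.

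Levels are given as CPM, counts relative to library size after adjusting for library composition with TMM factors (trimmed mean of M-values). Where different genes or lists are compared, the level is divided by the exon length of the gene and given as CPM per kb. Values in fours are libraries 1 to 4, and means are followed by their SD over the 4 libraries (n = 4). Total counts were 12996892, 13209609, 14542692 and 23176949. At these depths 10 counts correspond to 0.718, 0.752, 0.739 and 0.433 CPM, so a gene under 1 CPM rests on few counts. Across the 11498 genes with enough counts, the log2 levels of the libraries correlated at 0.941 (libraries 1 and 4) to 0.981 (libraries 2 and 3). No pair of libraries held identical counts. Y-linked genes were detected in all 4 libraries (Eif2s3y, 117, 125, 84.4 and 62.9 CPM), whereas Xist was at 0 in 3 libraries and had 1 count in library 4. Mitochondrial transcripts made up 1.89, 1.82, 0.934 and 1.58% of counts and ribosomal protein genes 4.88, 4.05, 2.89 and 2.03%. Library 4 differed from the others in its balance of short and long genes. For 5 equal classes of genes from short to long, its median log2 ratio to the mean of the other libraries was −0.49, −0.14, 0.03, 0.21 and 0.43, against 0.15, 0.04, −0.02, −0.10 and −0.19 for library 1. A level that is high in library 4 alone in a long gene, or low there alone in a short gene, therefore follows a trend of all genes in that library.

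**Figure D1:**
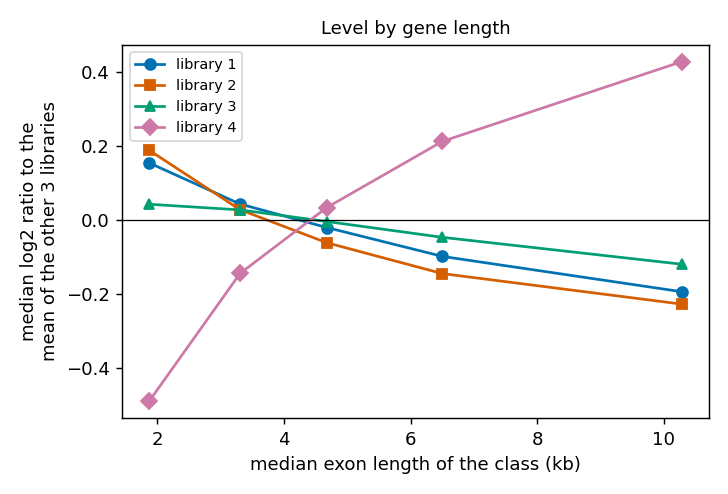
Median log2 ratio of each library to the mean of the other 3 (y axis) in 5 equal classes of genes of at least 10 CPM, placed at the median exon length of the class in kb (x axis). Library 4 climbs from −0.49 in the shortest class to 0.43 in the longest, and the lines of the other libraries slope gently the other way.

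The most abundant transcripts were those of macrophage lysosomes, iron storage and lipid transport. Lyz2, the lysozyme gene of macrophages and neutrophils (chromosome 10, 117277331 to 117282321, GRCm38), ranked first with 29201, 24876, 33276 and 28976 CPM, a mean of 29082 ± 3431. Psap, the precursor of the saposins that help lysosomal enzymes degrade sphingolipids (chromosome 10, 60277627 to 60302597), ranked second with 15169, 16202, 23203 and 20205 CPM. Their coefficients of variation (CV, the SD divided by the mean) were 0.12 and 0.20, near the median of 0.192 over all genes of at least 10 CPM. These ranks by CPM also grow with the length of the transcript. The ferritin heavy chain gene Fth1 followed at 14208 ± 2346 CPM, and Apoe, which encodes apolipoprotein E (chromosome 7, 19696109 to 19699188), at 12287 ± 7058. Apoe was far less even, at 3335, 19597, 15803 and 10414 CPM, lowest in library 1 and with a mean of 15271 without that library. The cathepsin genes Ctsb, Ctss and Ctsd, which encode lysosomal proteases, had means of 10071, 6915 and 3774 CPM.

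Per kb, Lyz2 (22099), Psap (6813), the MHC class I light chain gene B2m (5997), Apoe (5747) and Ctss (5092) led all protein-coding genes. S100a9 (3344) and S100a8 (1619.5), which encode the subunits of the neutrophil and monocyte alarmin calprotectin, were among the first 20 per kb. So was Spp1 (3125), the osteopontin gene. The median over genes with enough counts was 6.18 CPM per kb. Counts were not concentrated in a handful of genes: the 10 most abundant held 10.6, 11.8, 13.5 and 11.2% of each library, and 593 genes together held 50% of the mean profile. In all, 8608 genes had a mean of at least 10 CPM, 2050 of at least 100 and 94 of at least 1000. Counts of list members at 10 or 100 CPM below are to be read beside these numbers and the 11498 genes with enough counts.

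**Figure D2:**
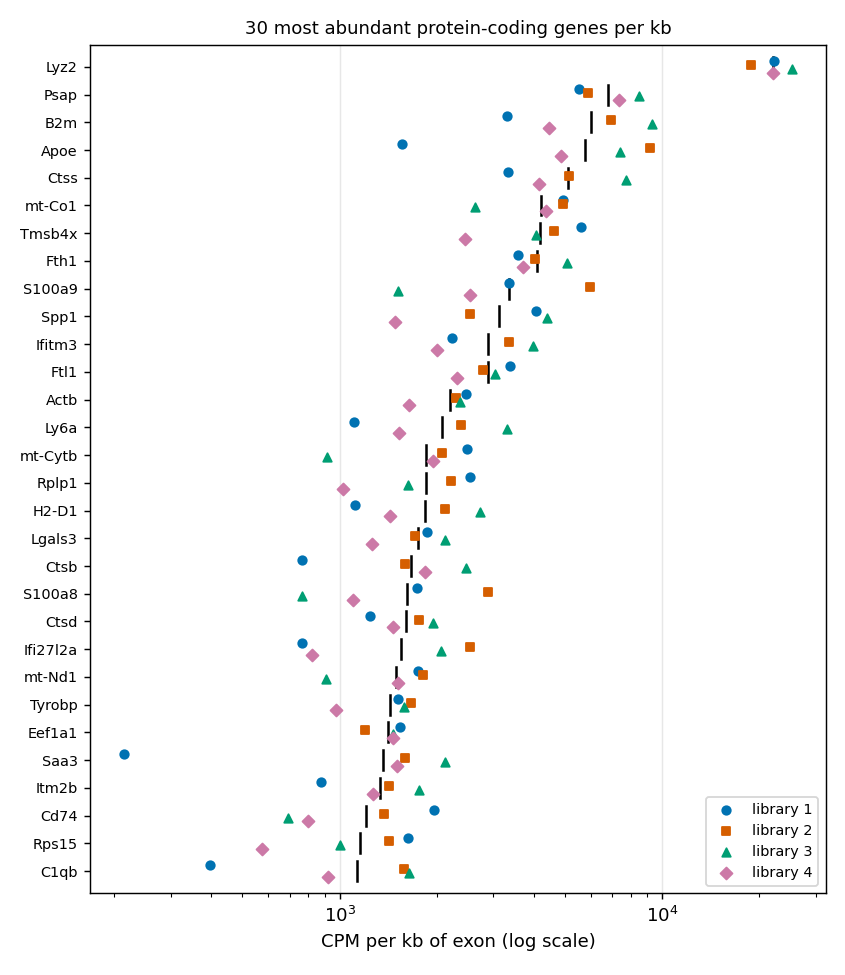
CPM per kb of exon on a log axis (x) for the 30 protein-coding genes of highest mean (y), 1 marker per library and a black bar at the mean. Lyz2 stands alone at a mean of 22099, and the markers of Apoe and Saa3 are spread widest, with library 1 lowest in both.

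The macrophage list had the highest sum of the lineage lists, and Lyz2, which neutrophils also express, made up 62.3% of it. Summed over its 23 genes, the macrophage list reached 31368, 32953, 43928 and 33608 CPM per kb, and 9179, 14050.0, 18642 and 11590.4 without Lyz2. The 3 neutrophil lists together, 42 genes, reached 9821, 14202, 5408 and 7528 CPM per kb. Without Lyz2 the macrophage sum was thus slightly below theirs in libraries 1 and 2 and above it in libraries 3 and 4. This comparison reduced the macrophage sum only, while the alarmin genes S100a9 and S100a8, which monocytes also express, stayed in the neutrophil sum. Without S100a9 the mature neutrophil list fell from 6308, 9799.7, 2989 and 4383 CPM per kb to 2963, 3835, 1467 and 1839. Of the 23 macrophage genes, 20 had at least 10 CPM and 18 at least 100, with a median of 140.2 CPM per kb against 6.18 over the 11498 genes with enough counts. Cd68, a lysosomal membrane protein of macrophages, stood at 909, 1245, 1689 and 1064 CPM, and Adgre1, which encodes the macrophage antigen F4/80, at 383, 510.1, 835 and 1125. Gpnmb, a lysosomal glycoprotein of phagocytes, reached 4157, 3809, 7228 and 6236 CPM. The complement gene C1qb was lowest in library 1, at 432, 1726, 1781 and 1001 CPM, as were C1qa (129, 516, 496 and 269) and C1qc (291, 1138, 1193 and 636). In library 1, 15 of the 20 members of at least 10 CPM had their lowest value, a position that library 1 held for 28.0% of all genes at that level. Among genes of resident tissue macrophages, levels ran from none to high. Siglec1 was at 176, 785, 1437 and 1609 CPM, Mrc1 at 118, 156, 138 and 182 and Mertk at 35.5, 85.2, 107 and 125. Timd4 and Vsig4 had no count in any library, which allows at most 0.216, 0.226, 0.222 and 0.13 CPM (3 counts of each library, counting error only), and Cd163 was at 0.196 ± 0.14 CPM.

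Most monocyte genes were well expressed, with a lower summed level. Of 15 listed genes, 11 had at least 100 CPM, while over all genes 2050 did and 11498 had enough counts. The list summed to 1278, 1898, 2289 and 2217 CPM per kb. Csf1r, the receptor of the macrophage growth factor, stood at 1327, 2252, 3134 and 4205 CPM, lowest in library 1 and highest in library 4. Ly6c2, which encodes the Ly6C antigen of monocytic MDSCs, was at 514, 1280.1, 1572 and 1056 CPM, and the chemokine receptor gene Ccr2 at 1163, 1355, 1738 and 1761. Treml4, a gene of non-classical monocytes, stayed under 1 CPM in every library.

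Neutrophil genes were present at all stages of granule formation, each list with a sum below that of the macrophage list. The mature neutrophil list summed to 6308, 9799.7, 2989 and 4383 CPM per kb, and S100a9 (chromosome 3, 90692632 to 90695721) alone made up 57% of its mean. S100a9 was at 1746, 3114, 795 and 1328 CPM and S100a8 at 1203, 1996, 533 and 765, both highest in library 2 and lowest in library 3. The receptor genes Csf3r (203, 300.2, 279.5 and 322 CPM) and Cxcr2 (57.6, 36.8, 13.5 and 44.8 CPM) mark granulocytes and respond to G-CSF and to CXC chemokines. Itgam, which encodes the CD11b antigen that all MDSCs share and was looked up after the other values were seen, was at 811, 744, 685 and 364 CPM. Ly6g, which encodes the antigen that defines granulocytic MDSCs, was low at 15.3, 17.8, 4.21 and 9.82 CPM, and Trem1 was under 1 CPM on average. The secondary and tertiary granule list, which is made during neutrophil maturation, had all 14 members at 10 CPM or more and summed to 2993, 3262, 2041 and 2695 CPM per kb. The collagenase gene Mmp8 was at 2981, 847, 911 and 1087 CPM, and the lactoferrin gene Ltf at 179, 567, 195 and 506. Primary granule genes, made by promyelocytes, had their highest value in library 2 for all 7 members of at least 10 CPM, a position that library 2 held for 19.8% of all genes at that level. Mpo, the myeloperoxidase gene, was at 264, 695, 237 and 409.5 CPM and Elane, the neutrophil elastase gene, at 183, 408, 117 and 145. In bulk RNA, fewer cells of a type and less RNA per cell cannot be told apart.

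**Figure D3:**
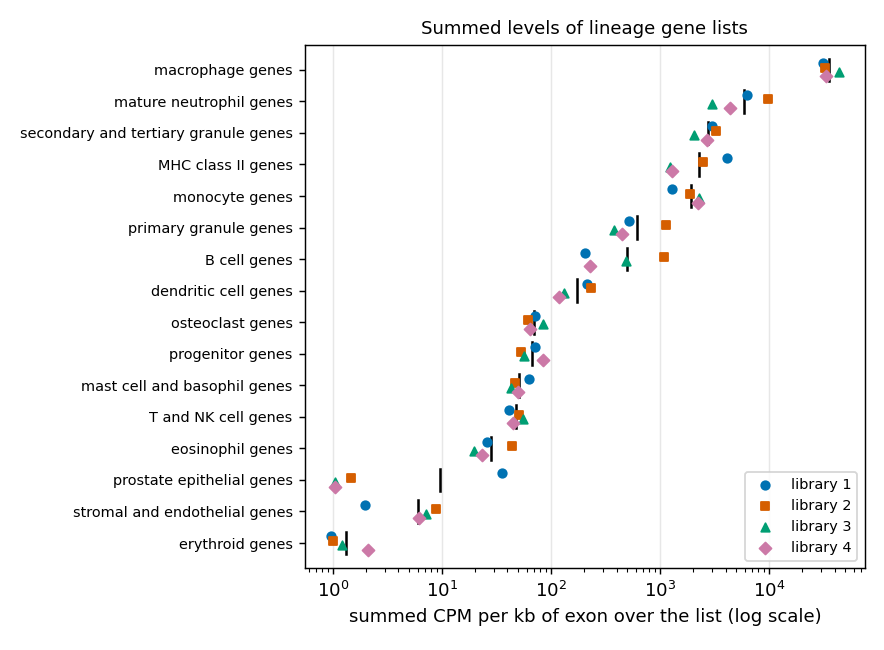
Summed CPM per kb of exon on a log axis (x) for 16 lineage gene lists (y), 1 marker per library and a black bar at the mean. The macrophage list lies between 31368 and 43928 in all libraries, above every neutrophil list. Library 1 stands apart in the prostate epithelial list, where its sum of 35.3 falls to 1.10 without Cdh1.

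Antigen presentation genes were abundant and uneven. The 11 genes of the MHC class II list summed to 4079.6, 2492, 1227 and 1299 CPM per kb, and library 1 was highest in all 10 members of at least 10 CPM, against 26.0% of all genes. Cd74, the invariant chain gene, was at 3286, 2308, 1165 and 1341 CPM and H2-Ab1, a class II beta chain gene, at 1553, 709, 347 and 368. Ciita, the transactivator of these genes, was at 93.5, 41.2, 25.9 and 42.4 CPM. Of 18 dendritic cell genes, 10 had at least 10 CPM, while over all genes 8608 did and 11498 had enough counts. Library 1 was highest in 6 of the 10, against 26.0% of all genes, and library 2 in 4, against 19.8%. Defining genes of conventional dendritic cells were low in every library. Xcr1 had 1 count in library 2 and none in the others, Clec9a was at 0.862, 0.451, 0.518 and 0.606 CPM, and Flt3, the receptor on which these cells depend, at 4.09, 2.63, 2 and 2.25. Of the dendritic cell list, Ccl22 (88.8, 226, 85.5 and 84 CPM) and Ccr7 (65.6, 110.1, 72.7 and 62.6 CPM), genes of activated dendritic cells, were the most abundant per kb. Itgax, which encodes CD11c, was at 139, 12.3, 8.43 and 30.9 CPM, more than 4-fold higher in library 1 than in any other library.

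Many markers of other cell types were near 0, whereas some were measurable in all 4 libraries and a few were high in 1 library. B cell genes were measurable everywhere, with sums of 205, 1091, 484 and 229 CPM per kb. All 11 members of at least 10 CPM were highest in library 2, against 19.8% of all genes at that level. Igkc, the kappa light chain constant gene (chromosome 6, 70726435 to 70726966), was at 27.2, 304, 119 and 49.8 CPM and Igha, the IgA constant gene, at 0.575, 77.9, 2.74 and 4.24. Type I collagen genes were also highest in library 2, with Col1a1 at 0.862, 18.4, 2.07 and 0.865 CPM and Col1a2 at 1.58, 21.1, 3.4 and 1.51. Which cells carried these transcripts, and whether such cells affected other values of library 2, was not tested. Of 16 T and NK cell genes in the table, 15 had means below 10 CPM, and Cd3e was at 0.144, 0.301, 0.148 and 0.216 CPM. The exception was the receptor gene Il7r (107, 107, 218 and 162 CPM), and which cells carried it was not tested. Of 12 listed erythroid genes, the 9 in the table summed to at most 2.09 CPM per kb. Hbb-bs, Alas2 and Slc4a1 were not in it. Of 12 listed prostate epithelial genes, 8 were in the table, and of these Cldn3 had no count in any library. Epcam, an epithelial adhesion gene, was at 1.94, 0.0752, 0.148 and 0.0433 CPM. Cdh1, which encodes E-cadherin (chromosome 8, 106603351 to 106670246), was at 157, 5.12, 4.29 and 4.24 CPM, while the keratin genes Krt18 and Krt19 were under 1 CPM in library 1 as elsewhere. Stem and progenitor genes were low apart from Cd93 (392 ± 91.5 CPM), with Kit at 5.4 ± 2.05 CPM and Cd34 at 7.57 ± 6.95. Of 9 osteoclast genes none reached 100 CPM, and Calcr had no count.

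Among senescence genes, the p21 gene was expressed well above the median of genes with enough counts (71.4 against 6.18 CPM per kb) and the p16 gene was near the limit of detection. Cdkn1a, which encodes the CDK inhibitor p21 (chromosome 17, 29090976 to 29100727), was at 297, 223, 255 and 239 CPM, a mean of 254 ± 31.7. Cdkn1b, the p27 gene, was at 98.7 ± 5.04 CPM. Cdkn2a, which encodes p16 and ARF (chromosome 4, 89274471 to 89294653), was at 0.718, 0.376, 0.148 and 0.13 CPM and its neighbour Cdkn2b at 0.718, 0.602, 0.444 and 0.389. These amount to at most 10 counts per library. Trp53 was at 78.9 ± 8.51 CPM. Of 20 listed p53 target genes, 17 had at least 10 CPM. Over all genes, 8608 reached that level and 11498 had enough counts, so most genes with enough counts did so too. The list median was 10.7 CPM per kb, against 6.18 over the genes with enough counts. Mdm2, which encodes the ubiquitin ligase of p53, was at 138 ± 26.8 CPM, and Ccng1 at 133 ± 18.2. Glb1, the lysosomal beta-galactosidase gene whose activity is the usual stain for senescent cells, was at 75.3, 84.8, 141 and 114 CPM. Lmnb1, the lamin B1 gene, whose loss accompanies senescence in other cells, was at 79.2, 47.8, 26.8 and 41.1 CPM, highest in library 1.

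Transcripts of dividing cells were present in every library. All 26 genes of the proliferation list had a mean of at least 10 CPM, with a median of 8.3 CPM per kb, against 6.18 over the genes with enough counts. Mki67, which encodes the Ki-67 antigen (chromosome 7, 135689784 to 135716361), was at 202, 152, 94.9 and 214 CPM, Top2a, the topoisomerase gene of mitotic cells, at 129.6, 100.3, 53.7 and 114, and Pcna, the replication clamp gene, at 140.0, 108, 118 and 107. Library 1 was highest in 25 of the 26 members, against 26.0% of all genes, and library 3 lowest in 20, against 15.5%. The list sums were 354, 235, 177 and 211 CPM per kb. Bulk values do not show which cells carried these transcripts or how many did. Ccnd1, the cyclin D1 gene (chromosome 7, 144929931 to 144939925), was at 180.1, 26.6, 17.6 and 9.73 CPM and Ccnd2 at 131, 49.3, 38.8 and 25.1, both highest in library 1, whereas Ccnd3 was more even at 273, 176, 155 and 139. Of the BCL2 family, the pro-survival gene Mcl1 led per kb (469), at 1264, 1542, 1981 and 1619.5 CPM, with Bcl2l1 at 71.4 ± 30.3 and Bcl2 at 25.8, 10.7, 5.69 and 3.89.

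The summed level of secretory phenotype genes rested mostly on Spp1. Of 30 listed growth factor and protease genes, 16 had at least 10 CPM and 7 at least 100. Over all genes, 8608 reached 10 CPM, 2050 reached 100 and 11498 had enough counts. The list median was 2.32 CPM per kb, against 6.18 over the genes with enough counts. Spp1 (chromosome 5, 104435118 to 104441050) alone made up 88.4% of the summed level, at 6708, 4168, 7269.9 and 2454 CPM. Mmp12, the macrophage elastase gene, was at 1503, 285, 225 and 329 CPM, with a mean of 279.9 without library 1. Vegfa, the vascular growth factor gene, was at 188, 322, 171 and 188 CPM, and the protease inhibitor gene Timp2 at 131, 285, 394 and 335. Areg and Mmp3, which belong to the secretory phenotype of fibroblasts, had means of 0.0556 and 0.145 CPM.

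Of the classical inflammatory cytokine genes, Il6 and Il1a were low. Il1b and Tnf, with means of 26.1 and 30.7 CPM, were near the median of 28.8 CPM over genes with enough counts, lengths not considered. Il6 was at 0.503, 1.66, 0.444 and 0.908 CPM, Il1a at 1.8, 2.41, 2 and 1.64 and Il10, an anti-inflammatory cytokine gene, at 0.359, 2.48, 1.33 and 1.12. Il1b was at 28.2, 31.7, 21.9 and 22.5 CPM and Tnf at 36.5, 28.4, 29.7 and 28, both even across libraries. Per kb, Mif, the gene of a macrophage inhibitory factor, led the list of cytokines (139). Tgfb1, an immunosuppressive cytokine gene, was at 279, 234, 267 and 299 CPM, and the interleukin 1 receptor antagonist gene Il1rn at 110.3, 44, 48.5 and 50.6. Csf2, Csf3 and Ifng had means of 0.0669, 0.018 and 0.112 CPM, and Il23a had no count. Several chemokine genes were more abundant per kb, led by Pf4 (511) and Ccl6 (488). Ccl6 was at 1080.2, 975, 828 and 620.3 CPM, Ccl9 at 655, 759, 761 and 509, Pf4 at 525, 485, 249 and 215 and Cxcl16 at 238, 459.7, 579 and 393. Of the ligands of Cxcr2, Cxcl1 was low at 6.68, 7.22, 3.33 and 3.89 CPM, and Cxcl2 was at 30.9, 60.1, 14.1 and 15.1 CPM. Ccl2, the ligand of Ccr2, was at 85.4, 43.6, 77.1 and 14.7 CPM, lowest in library 4.

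On the receptor side, most listed genes had 10 CPM or more, as had most genes with enough counts. Over all genes, 8608 reached 10 CPM, 2050 reached 100 and 11498 had enough counts. Of 25 cytokine receptor genes, 23 had at least 10 CPM and 18 at least 100. The receptors of both culture cytokines were among them, with the GM-CSF receptor genes Csf2ra at 379.6, 263, 204 and 184 CPM and Csf2rb at 796, 497, 519 and 853, and the IL-6 receptor genes Il6ra at 99.6, 129, 151 and 183 and Il6st at 91, 113, 131 and 241. Tnfrsf1b, a TNF receptor gene, followed Csf1r in level per kb (304). Il1r2, the decoy receptor gene of interleukin 1, was at 124, 18.9, 14 and 11.3 CPM. The complement receptor gene C3ar1 (609, 992, 1808 and 1461 CPM) led the chemoattractant receptors per kb, ahead of Ccr2.

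**Figure D4:**
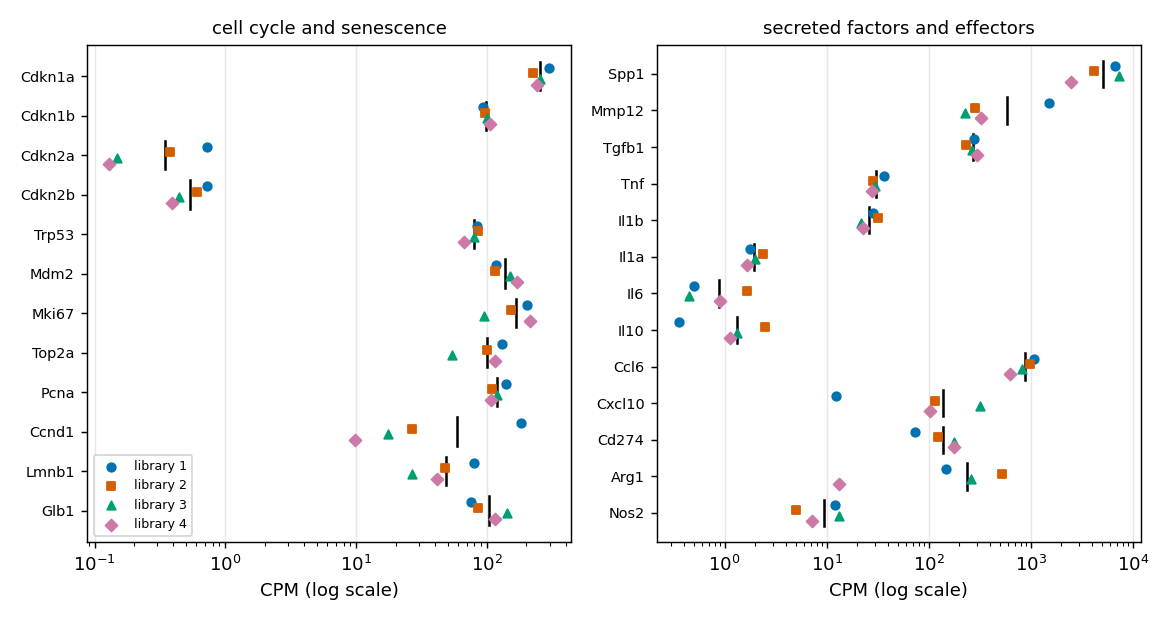
CPM on a log axis (x) for cell cycle and senescence genes (left panel, y) and for secreted factors and effectors (right panel, y), 1 marker per library and a black bar at the mean. Cdkn1a lies between 223 and 297 CPM while Cdkn2a and Cdkn2b stay under 1, and Arg1 spans 13.3 to 522.

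Suppressor effector genes were dominated by the NADPH oxidase that produces reactive oxygen species. Cyba and Cybb, which encode its membrane subunits, were at 801, 1010.3, 1003 and 541 and 1198, 1487, 2301 and 2989.9 CPM, and Ncf1, a cytosolic subunit gene, at 646, 704, 844 and 769. Of 28 listed genes, 24 had at least 10 CPM, while over all genes 8608 did and 11498 had enough counts. Arg1, the arginase gene that is the usual marker of MDSC function (chromosome 10, 24915221 to 24927484), was at 149, 522, 262 and 13.3 CPM, so that libraries 2 and 4 bracketed a wide range, and its mean was 237 ± 216, or 311 without library 4. Nos2, the inducible nitric oxide synthase gene, was at 12.1, 5.04, 13.2 and 7.14 CPM. Cd274, which encodes the checkpoint ligand PD-L1, was at 72.8, 125, 179 and 175 CPM, and Vsir, the VISTA gene, at 507, 507, 538 and 659. Ido1 was under 1 CPM in every library. Nt5e, which encodes the adenosine-producing enzyme CD73, was at 64, 7.52, 5.1 and 10.0 CPM.

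Median levels per kb were higher for the lists of apolipoproteins and lipid sensing (22.2) and of lipid uptake and lysosomal handling (53.1) than for synthesis (9.75). Over genes with enough counts the median was 6.18 CPM per kb. Apoe alone made up 77.0% of the summed level of its list, and Psap 83.1% of the uptake and lysosomal sum. Per kb, Apoe and Tyrobp, the signalling adaptor gene of Trem2 (chromosome 7, 30413760 to 30417585), led the list of apolipoproteins and lipid sensing at 5747 and 1437. Trem2, the lipid-sensing receptor gene (chromosome 17, 48346401 to 48354147), was at 105, 82.1, 119.5 and 71.7 CPM, or 19.1 per kb, with another order of the libraries than Apoe. Lpl, the lipoprotein lipase gene, was at 2500.1, 1136, 1879 and 1268 CPM. In the uptake and lysosomal list, Pla2g7 (1544, 1095, 1478 and 1411 CPM) and the cholesterol carrier gene Npc2 (1552, 2258, 3132 and 2088 CPM) followed Psap per kb. Plin2, which encodes the coat protein of lipid droplets, was at 848, 1511, 1631 and 1623 CPM. The cholesterol exporter gene Abca1 was at 53.4, 234, 278 and 576 CPM and Abcg1 at 129, 251, 381 and 485, both lowest in library 1 and highest in library 4, where long genes were generally high. Over all genes, 8608 reached 10 CPM, 2050 reached 100 and 11498 had enough counts. Of 18 fatty acid and cholesterol synthesis genes, 17 had at least 10 CPM and 3 at least 100. Of the 17, 14 were lowest in library 2, a position that library 2 held for 23% of all genes. Sqle, the squalene epoxidase gene of cholesterol synthesis, was at 67.2, 17.5, 29.9 and 28.7 CPM. Among eicosanoid genes, Alox5ap, which encodes the activating protein of 5-lipoxygenase, was at 786, 535, 587 and 418 CPM, and Alox5 itself was less even at 136, 20.8, 15.1 and 32.9. Ptgs2, the inducible cyclooxygenase gene, was low at 2.16, 2.71, 3.84 and 2.9 CPM.

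Glycolysis genes of at least 10 CPM varied about as much as all genes at that level (median CV 0.188 against 0.192), and myeloid transcription factors slightly more (0.231). Of 24 glycolysis and hypoxia genes 22 had at least 10 CPM, led per kb by Aldoa (1918 ± 371 CPM) and Pkm (1645 ± 313 CPM), and 15 of the 22 were highest in library 1, against 26.0% of all genes. The myeloid factors Cebpb (431 ± 101 CPM) and Spi1, the PU.1 gene (486 ± 88 CPM), were the most abundant of their list per kb. Irf8, a monocyte factor, was at 377 ± 62.9 CPM, whereas Cebpe and Gfi1, factors of granulocyte maturation, were at 12.3 ± 5.09 and 9.02 ± 5.18. Immediate early genes, which respond within minutes to handling and stimulation, were highest in library 2 in 7 of the 12 members of at least 10 CPM, against 19.8% of all genes, with Fos at 60.8, 319, 72.4 and 84.6 CPM and Egr1 at 8.19, 44.6, 3.25 and 7.05.

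Over the 8608 genes of at least 10 CPM, the median CV among the 4 libraries was 0.192. The CV was above 0.5 for 415 genes (4.82%) and above 1 for 33. Without library 1, 271 genes had a CV above 0.5. Among the 200 most variable genes, library 1 was the lowest for 46.0% and the highest for 31.5%, against 28.0% and 26.0% of all genes. The steadiest genes included Elavl1, which encodes an RNA-binding protein (57.4, 57, 57.7 and 57.4 CPM), Dynll2, a dynein light chain gene (71.8, 70.3, 70.8 and 71.7 CPM), and Rpn2, a subunit gene of the oligosaccharyltransferase (200.2, 208, 201 and 202 CPM).

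The first pattern was a set of genes high in library 1 alone. Cdh1 had the highest CV of all (1.79), and Ccnd1, Nt5e, Il1r2, Itgax and Asgr2, the last a subunit gene of the asialoglycoprotein receptor (82.5, 11.2, 13 and 7.14 CPM), had CVs of 1.39, 1.31, 1.30, 1.30 and 1.27. Aqp9, a glycerol and water channel gene, was at 53.3, 9.63, 6.21 and 6.06 CPM, Mgl2, a lectin gene of some dendritic cells and macrophages, at 90.8, 18.7, 15.5 and 15.5, and Cd33, an inhibitory lectin gene, at 220.1, 34.4, 29.9 and 69.5. Ifitm1, a membrane protein gene that interferon can induce, was at 1434, 324, 324 and 261 CPM and so differed from the interferon-stimulated genes described next. In all, 76 genes of at least 10 CPM were at least 2-fold higher in library 1 than in each other library and 181 at least 2-fold lower, against 23 and 11 for library 2, 12 and 13 for library 3 and 82 and 35 for library 4. The 82 genes of library 4 had a median exon length of 9830.5 bases.

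The second pattern was the interferon response, which was expressed in every library and differed most between libraries 1 and 3. All 24 listed interferon-stimulated genes had at least 10 CPM and 21 at least 100. The list summed to 1073, 3561, 5587 and 2703 CPM per kb, a mean of 3231 ± 1879, and its median was 74.4 CPM per kb. Library 1 was lowest in all 24 members, against 28.0% of all genes, and library 3 highest in 23, against 17.9%. The exception was Ddx58, the RIG-I gene, at 98.3, 235, 394 and 412 CPM. Isg15, which encodes a ubiquitin-like modifier, was at 94, 402, 584 and 212 CPM. Ifit2, whose protein binds viral RNA, was at 128, 771, 2017 and 1143 CPM, and Irf7, the factor that amplifies interferon production, at 214, 1055, 1715 and 724. Irf9, a subunit gene of the interferon-activated ISGF3 complex, was even at 119, 129.9, 148 and 133. Ifnb1, the interferon beta gene, was at 0.0718, 1.13, 3.77 and 0.865 CPM. In library 1 it had 1 count, so its level there is imprecise. Genes outside the list had the same order of lowest and highest library, among them Ifit1bl1 (14.9, 92, 405 and 118 CPM) and the acute-phase gene Saa3 (559, 4162, 5540.3 and 3938 CPM). Of the 200 most variable genes, 20.5% were lowest in library 1 and highest in library 3, against 8.98% of all genes.

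The ISGF3 complex binds a DNA element built from GAAA repeats. The letters GAAANNGAAA, or TTTCNNTTTC on the other strand, were found within the 250 bases before an annotated start in 10 of the 19 list genes with a promoter in the RefSeq table (52.6%). The same letters were found for 3.67% of the genes of at least 10 CPM and 3.46% of all 27025 genes of that table. Overlapping matches were counted as matches. A match is a description of the sequence and does not show that a factor bound there in these cells. Of the 10 list genes among the 200 most variable, 5 held the letters, and a stretch of 60 bases around the match nearest to the start is shown for each, 5′ to 3′ on the strand of the gene, with matches in capitals (RefSeq, GRCm38.p6).
Isg15 (chr4:156200850-156200909, minus strand): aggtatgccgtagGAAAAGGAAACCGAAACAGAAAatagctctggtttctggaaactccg
Ifit1 (chr19:34640779-34640838, plus strand): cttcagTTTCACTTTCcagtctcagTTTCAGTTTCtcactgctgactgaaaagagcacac
Ifit3 (chr19:34583382-34583441, plus strand): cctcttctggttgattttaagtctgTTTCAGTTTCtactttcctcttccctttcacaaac
Rsad2 (chr12:26456538-26456597, minus strand): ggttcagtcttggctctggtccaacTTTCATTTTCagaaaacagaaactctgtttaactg
Cxcl10 (chr5:92349068-92349127, minus strand): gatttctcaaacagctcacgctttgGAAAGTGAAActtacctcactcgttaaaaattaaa
These are the genes Isg15, Ifit1, Ifit3, Rsad2 and Cxcl10. Cxcl10, the gene of a chemokine that attracts T cells, was the most variable of them, at 12.4, 115, 321 and 104 CPM. Rsad2, the gene of the antiviral protein viperin, was at 111, 441, 1185 and 597 CPM, Ifit1 at 66, 301, 592 and 324 and Ifit3 at 95.5, 522, 897 and 439, so that all 5 were lowest in library 1 and highest in library 3. Ifit2, Irf7, Oasl1, Ifi44 and Xaf1 varied in the same way and did not hold these letters in the window.

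**Figure D5:**
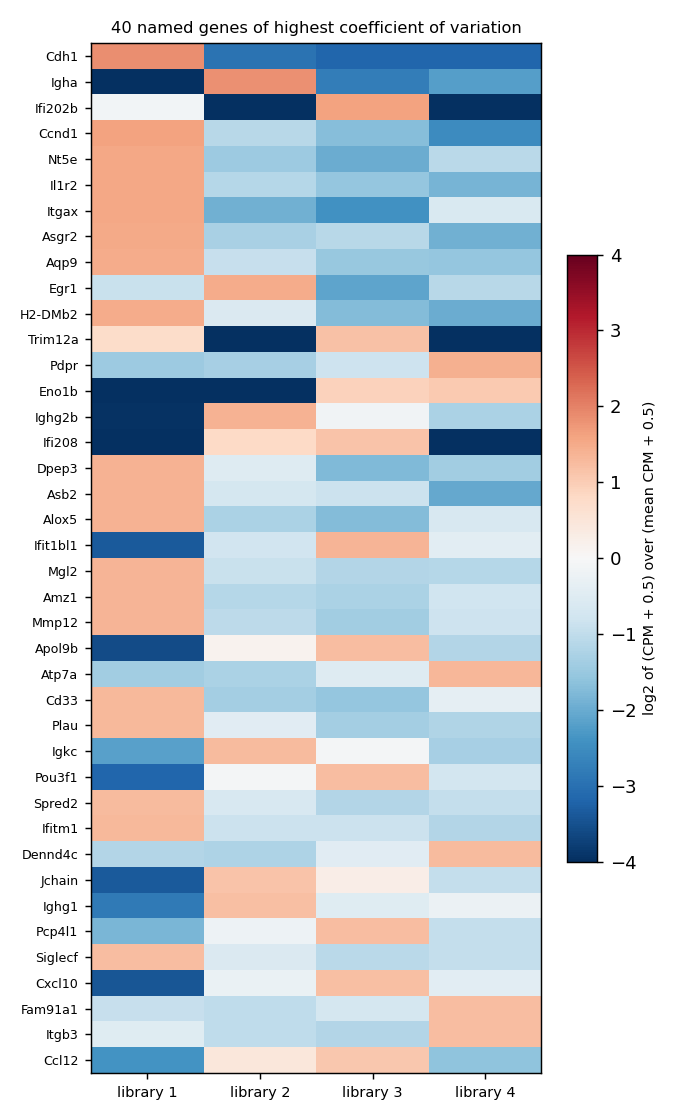
Log2 of CPM plus 0.5 over the mean CPM plus 0.5 (colour, red above and blue below the mean, with values past the ends of the scale drawn in the end colour) for the 40 named genes of highest CV (rows, CV decreasing downward) in the 4 libraries (columns). Red cells gather in library 1 from Cdh1 to Siglecf, in library 2 for the immunoglobulin genes and in library 3 for interferon-stimulated genes.

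The third pattern was held by library 2 and the fourth by library 4. Besides Igha and Igkc, the immunoglobulin genes Ighg2b (0.862, 54.5, 18.7 and 8.17 CPM), Ighg1 (1.36, 29.6, 8.87 and 10.6) and Jchain (0.575, 23.8, 12.9 and 5.19), which plasma cells express, were highest in library 2. In library 4, Atp7a, a copper transporter gene (8.4, 9.25, 15.9 and 57.9 CPM), Dennd4c (24, 23.3, 39.8 and 134), Itgb3, the integrin beta 3 gene (20.4, 14.1, 12.6 and 69), and Pdpr (4.31, 4.66, 6.8 and 34.4) stood above the rest. The 54 genes of the 200 that were highest in library 4 had a median exon length of 8608 bases, against 4672 for all genes of at least 10 CPM. With the length trend of each library removed, 38 of the 200 most variable genes were highest in library 4, and 161 of the 200 were shared with the uncorrected ones.

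The last pattern was genes that were expressed in some libraries and had no count at all in others. A search for genes with 0 counts in at least 1 library and at least 5 CPM in another, a rule chosen after values were seen, found 16 genes, 9 of them protein-coding. Ifi202b, an interferon-inducible DNA-sensor gene of the Ifi200 family (chromosome 1, 173962568 to 173982744), was at 113, 0, 374 and 0 CPM, with 1573 counts in library 1, 5061 in library 3 and none in libraries 2 and 4. Its level in library 3 was at least 1658-fold higher than in library 2, with 3 counts taken as the limit for 0. Trim12a (chromosome 7, 104299894 to 104315466) was at 26.9, 0, 36.9 and 0 CPM and Gvin1 (chromosome 7, 106156556 to 106215326), an interferon-induced GTPase gene, at 3.3, 0, 13.2 and 0, with the same 2 libraries at 0. Eno1b had no count in libraries 1 and 2 and was at 29.5 and 32.4 CPM in libraries 3 and 4. Slfn8 and Mmrn1, which encodes multimerin 1 of platelets and endothelium, had no count in library 2 only, at 1.8, 0, 7.61 and 10.4 and 3.3, 0, 2.22 and 9.64 CPM. Ifi208, a further Ifi200 gene, did not meet the rule but was nearly as uneven, at 1.08, 67.6, 84.2 and 0.303 CPM. Ifi202b, Trim12a and Eno1b were among the 40 named genes of highest CV. All 4 libraries carry the same strain label, and whether they differ in genotype was not tested.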

How the data were processed

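RNA from 4 untreated libraries was described across all genes, and no groups were tested against each other. Libraries were made from poly(A) RNA (NEBNext) and read on a NextSeq 500, per the labels' protocols. The authors deposited raw counts, whole-number reads per Ensembl gene. The submitters' processing notes list STAR 2.5.2a, FastQC and DESeq2 and the build GRCm38 (mm10). How reads were assigned to genes, with which annotation and strand setting, is not given in the sources used here, so reads of overlapping genes may lie with either gene. Of 193 genes named, 12 share exon sequence with another gene on the same strand and 35 on the opposite one. Among the former are Spp1, Ctsd, Cd74, Csf2rb, Glb1, Irf9, Itgam, Pkm and Top2a, and among the latter Ctsb, Csf1r, Mmp12, Cdkn1a, Ccnd1, Cd274, Cxcl10 and Irf7. Symbols, exon lengths (the union of all exons) and coordinates came from GENCODE M21, which matched 26881 of 26930 identifiers.

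Counts were scaled with TMM factors of the 4 libraries in edgeR 4.0.16 (R 4.3.3), and filterByExpr kept 11498 genes. Total counts per library were 12996892 to 23176949. Variability was measured as the CV at a mean of at least 10 CPM, and its computation was tested on simulated data. Promoter sequences are from RefSeq. The untreated libraries and the 41 gene lists were chosen with earlier results of these data known. Genes were named by rule: the 30 highest protein-coding genes by CPM and per kb, up to 6 members per list by level per kb and its lowest defining members, the 40 genes of highest and 10 of lowest CV, and 35 fixed genes. The text names part of these, and names outside the rule were chosen after values were seen. Alternatives were DESeq2 1.42.0 size factors, library size, upper-quartile scaling, TMM over all 8 libraries, other filters, measures and lengths, and leaving out each library.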

Additional observations from a re-analysis of the deposited data

Results flagged for a closer look

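Of 234 values examined (193 genes and 41 list sums), 33 had 1 library so far from the other 3 that the gap exceeded Dixon's 95% limit for 4 samples. Chance alone places about 1 in 20 groups of normally distributed values there. That rate does not hold for genes named for their high CV, nor where 1 count in 1 library fixes the outcome. Library 1 was the one apart in 18 of the 33, library 2 in 9, library 4 in 5 and library 3 in 1. Many of these genes were named because they vary most, so the count describes that choice as well as the libraries.

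Library 1 was highest for Alox5 (136 CPM), Aqp9 (53.3), Asgr2 (82.5), Ccnd1 (180.1), Cdh1 (156.6), Il1r2 (124), Il1rn (110.3), Mgl2 (90.8), Nt5e (64.0) and Siglecf (24.4). It was also highest for Ifitm1 (1434 CPM), Mmp12 (1503) and Mmp8 (2981), and for Epcam (1.94). The summed level of the prostate epithelial list was highest there as well, at 35.3 CPM per kb, nearly all of it Cdh1. Plin2 was lowest in library 1, at 848 CPM.

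Library 2 was highest for Ccl22 (226 CPM), Col1a1 (18.4), Col1a2 (21.1), Egr1 (44.6), Fos (319), Igha (77.9) and Vegfa (322). Library 4 was highest for 4 long genes, Atp7a (57.9 CPM), Dennd4c (133.9), Itgb3 (69.0) and Pdpr (34.4). Tpsb2, at 0.359 CPM in library 1, rests on 5 counts there and 1 or 2 in each other library. The remaining values rest on 1 count in 1 library and none elsewhere: Cma1 in library 3 (0.0739 CPM), Csf3 in library 1 (0.0718 CPM), Krt19 and Xcr1 in library 2 (0.0752 each) and Xist in library 4 (0.0433).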

How the results depend on the processing

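The numbers of genes at 1 and 10 CPM and of genes holding 50% of the counts stayed within 1.5 times of the reported ones under every alternative run. So did the number of genes with a CV above 0.5 under DESeq2 size factors (417), library size (432), upper-quartile scaling (401), TMM over all 8 libraries (436) and centring of 20 length classes (328), the last chosen after seeing the data. That number, 415, depended on the threshold and the measure: 1252 with a minimum mean of 1 CPM, 172 with 50 CPM, 126 by edgeR's tagwise biological CV and 1283 by an SD of log2(CPM + 1) above 0.5. Leaving out 1 library gave 271 to 577, the lowest without library 1. Of the 200 most variable genes, 98 were shared with those found without library 1, against 137 to 156 without another library. Lengths of the longest transcript in place of all exons moved the summed level of apolipoproteins and lipid sensing from 7462 to 10922 CPM per kb, beyond its SD. The other 11 lineage, interferon, proliferation and secretory sums examined in this way stayed within their SD under all alternatives run. Over all 41 list sums, longest-transcript lengths moved 13 beyond their SD and TMM over all 8 libraries moved 3. The same lengths moved 198 of 692 levels per kb, and TMM over all 8 libraries moved 44 of 692 mean CPM values. By those lengths 3 of the first 5 and 18 of the first 20 protein-coding genes per kb were shared with the reported ones, and 39 of 41 lists had the same leading gene. The exceptions were the primary granule list (Prtn3 in place of Elane) and the secondary and tertiary granule list (Hp in place of Mmp8). Levels under 1 CPM rest on at most about 23 counts, and with 4 libraries of unstated origin the SD is itself imprecise.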

Other observations

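Basophil, eosinophil and megakaryocyte genes were present at low to moderate levels beside the main lineages. Prss34, a basophil protease gene, was at 57, 32.9, 35.1 and 37.2 CPM and Mcpt8, a further one, at 8.05, 8.73, 7.91 and 7.18, while Tpsb2 and Cma1, protease genes of tissue mast cells, had means of 0.149 and 0.0185 CPM. Prg2, the eosinophil major basic protein gene, was at 12.7, 28.8, 13.7 and 15.7 CPM and Epx, the eosinophil peroxidase gene, at 0.575, 1.43, 0.739 and 1.43. Of the megakaryocyte list, Pf4 made up 83.3% of the summed level, and macrophages also express it. Vwf was at 77.4, 46.1, 75 and 126 CPM and Gp9, a platelet receptor subunit gene, at 2.37, 2.11, 1.7 and 1.82.

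MHC class I genes had the same lowest and highest library as the interferon-stimulated genes, in contrast to MHC class II. H2-D1 was at 2872, 5463, 7006 and 3706 CPM, H2-K1 at 1664, 3166, 4437 and 2381 and B2m at 2841, 5953, 7994 and 3842. The Sca-1 gene Ly6a, which interferon can also induce, was at 1336, 2859, 3972 and 1843 CPM.

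The 16 genes with no count in some untreated library were also looked up in the Romidepsin libraries, as counts and with no test. Over these genes, 24 combinations of gene and library had no count in the untreated series. The treated library of the same number had no count in 19 of the 24 and at most 3 counts in 22. For the 40 combinations with a count in the untreated library, the treated library of the same number had no count in 2 and more than 3 counts in 30. Ifi202b had 378, 0, 4401 and 0 counts in treated libraries 1 to 4, Trim12a 126, 0, 356 and 0, and Mmrn1 89, 0, 15 and 52. The labels do not say what a shared number marks.

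Jund, an AP-1 gene, had at most 1 count in any library, although its relatives Junb and Jun were at 274 ± 115 and 246 ± 60.2 CPM. Jund shares exon sequence with a gene annotated on the opposite strand, but so do Jun and Junb. Whether the counting left reads of Jund out was not tested.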
